A study of Mus musculus with 6 samples.

Results

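Genes that drive DNA replication and mitosis were examined in whole testes of mice 9 days after birth, when spermatogonia and Sertoli cells are both still dividing. The set holds 37 genes, chosen by name as cyclins, cyclin-dependent kinases, replication factors and mitotic regulators, and 35 of them had a row in the expression table, out of 17277 named genes and 25631 rows. Mki67 and Cenpf had no row under their accessions and were not analysed here. For each gene the row with the highest mean log2 intensity was taken. Birc5 was the 1 gene with a further row.

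Both groups were testes at postnatal day 9 of a line labelled NGN-cre: 3 control arrays from Cre-negative samples, and 3 Dmrt1 KO arrays from Cre-positive samples with the genotype label Dmrt1 KO. The labels do not spell out the promoter behind NGN-cre, the cells in which the Cre acts, the targeted allele or whether each sample was 1 animal, so each p-value reflects no more than the scatter among these arrays, which may be technical, and an effect of Cre cannot be told apart from one of targeting Dmrt1. The transcript of Dmrt1, a transcriptional regulator made by Sertoli cells as well as germ cells, was itself 2.50-fold lower in the Dmrt1 KO arrays (-1.32 ± 0.20 on the log2 scale, mean difference and SE; adjusted p = 0.124 in limma), and the position of its probes relative to the targeted part was not analysed here. Markers of the labelled tissue were present: all 12 germ cell and all 9 measured Sertoli cell markers lay above the background guide in both groups, where the guide is a log2 intensity of 7.19, the 95th percentile of 1064 olfactory receptor rows. Dmrt1 KO replicate 3 stood apart from the other arrays, with a Pearson's r of log2 intensity of 0.966 to 0.973 to each of them, across rows that are not independent replicates, against 0.978 to 0.988 among the rest.

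A mitotic cell passes from G1, where D-type cyclins with Cdk4 and then E-type cyclins with Cdk2 release the E2F factors from the RB proteins, into S phase, where the licensed origins carrying the MCM helicase fire. Cyclin A with Cdk2 and Cdk1, and then cyclin B with Cdk1, take it through G2 into mitosis, and the spindle checkpoint holds back Cdc20 and the anaphase promoting complex until the chromosomes are attached. In the postnatal testis these genes serve the amplifying spermatogonia and the Sertoli cells before the latter leave the cycle, and some, such as Ccna1, are used mainly in meiotic germ cells.

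The promoters of this set were examined for sequence words by which cell cycle genes are known to be timed: the E2F site, the CHR (cell cycle genes homology region) read by MuvB complexes, and the CCAAT box bound by NF-Y. RefSeq promoters of build GRCm38.p6 were matched for 30 of the 37 genes (32 entries, with 2 entries each for Mcm7 and Ccnd3), and the 250 bases before the start were searched on both strands. The E2F words TTTCCCGC, TTTCGCGC, TTTGCCGC and TTTGGCGC can overlap each other, and at least 1 of them was in 6 of the 32 entries (18.8%), against 1.86% of 32851 promoters of the same length. The CHR words TTTGAA and TTCGAA were in 8 of 32 (25%, against 17.1% of all), and CCAAT was in 25 of 32 (78.1%, against 33.8%). The core of the DMRT site, TACANTGT, was in 0 of 32 entries, against 2.35% of all promoters. At so low a share, 32 entries are too few to read this 0 as a lack of the word. A match is a description of letters in this window and not a measured site.

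The promoters of 5 genes are shown with these words in capitals, to set genes whose Dmrt1 KO arrays were all below the controls (Ccne1, Bub1, Mcm5) beside genes whose groups overlapped (Mcm6, which like Mcm5 has E2F words and CCAAT boxes, and Cdc20, which has CCAAT boxes and a CHR word that the other 4 lack). They lie at chr7:38107491-38107740, minus strand (Ccne1), chr2:127831860-127832109, minus strand (Bub1), chr8:75109259-75109508, plus strand (Mcm5), chr1:128359706-128359955, minus strand (Mcm6) and chr4:118437344-118437593, minus strand (Cdc20), each ending at the base before the start.
Ccne1: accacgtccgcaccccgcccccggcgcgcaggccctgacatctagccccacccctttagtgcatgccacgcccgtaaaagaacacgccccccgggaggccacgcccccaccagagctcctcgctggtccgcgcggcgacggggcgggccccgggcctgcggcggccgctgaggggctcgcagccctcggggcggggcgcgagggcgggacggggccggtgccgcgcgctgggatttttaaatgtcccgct
Bub1: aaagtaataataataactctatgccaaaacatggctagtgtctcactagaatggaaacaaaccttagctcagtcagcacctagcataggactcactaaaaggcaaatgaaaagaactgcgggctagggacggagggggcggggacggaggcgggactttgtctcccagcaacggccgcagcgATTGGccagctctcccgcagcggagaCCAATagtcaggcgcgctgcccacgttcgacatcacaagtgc
Mcm5: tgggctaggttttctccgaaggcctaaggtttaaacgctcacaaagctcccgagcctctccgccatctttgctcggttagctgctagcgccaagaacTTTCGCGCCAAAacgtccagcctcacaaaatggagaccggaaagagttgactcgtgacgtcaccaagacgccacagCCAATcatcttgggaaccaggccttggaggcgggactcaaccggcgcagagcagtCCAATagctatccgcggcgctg
Mcm6: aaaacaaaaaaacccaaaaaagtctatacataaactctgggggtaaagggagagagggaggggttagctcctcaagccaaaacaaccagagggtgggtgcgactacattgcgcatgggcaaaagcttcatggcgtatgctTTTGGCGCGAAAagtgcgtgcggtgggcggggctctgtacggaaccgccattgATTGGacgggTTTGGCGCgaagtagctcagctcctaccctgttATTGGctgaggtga
Cdc20: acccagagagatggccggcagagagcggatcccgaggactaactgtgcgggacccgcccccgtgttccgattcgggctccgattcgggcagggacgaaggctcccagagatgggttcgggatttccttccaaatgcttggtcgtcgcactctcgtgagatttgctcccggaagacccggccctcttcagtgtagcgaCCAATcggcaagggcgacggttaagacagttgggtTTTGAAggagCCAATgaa
The capitals in Mcm5 and Mcm6 include overlapping E2F words, those in Bub1 are CCAAT boxes alone, and Ccne1 held none of the words searched. No entry was matched for Ccne2, Ccna2, Ccnd1, Ccnd2, Mcm4, Aurkb or Cdc25c.

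The comparison of Dmrt1 KO with control testes asks which transcripts differ after conditional targeting at this age. For most of the cell cycle genes the difference between groups was small. No member passed an adjusted p of 0.05 in limma over all rows (0 of 35, with a background of 0.0312% of rows called, 8 of 25631), and adjusted p ran from 0.356 to 0.995. By direction, 0 members were higher (background 0.0273%) and 0 lower (0.0039%). At an unadjusted p of 0.05 limma gave 3 lower and 0 higher members, against 9.5% of all rows in either direction (5.1% lower and 4.41% higher). The median log2 fold change was -0.05 over the 35 members and -0.02 over all rows, and 21 members lay below 0 and 14 above. The absolute log2 fold change was under 0.5 in 32 members, with a median of 0.15 against 0.22 over all rows.

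**Figure D1:**
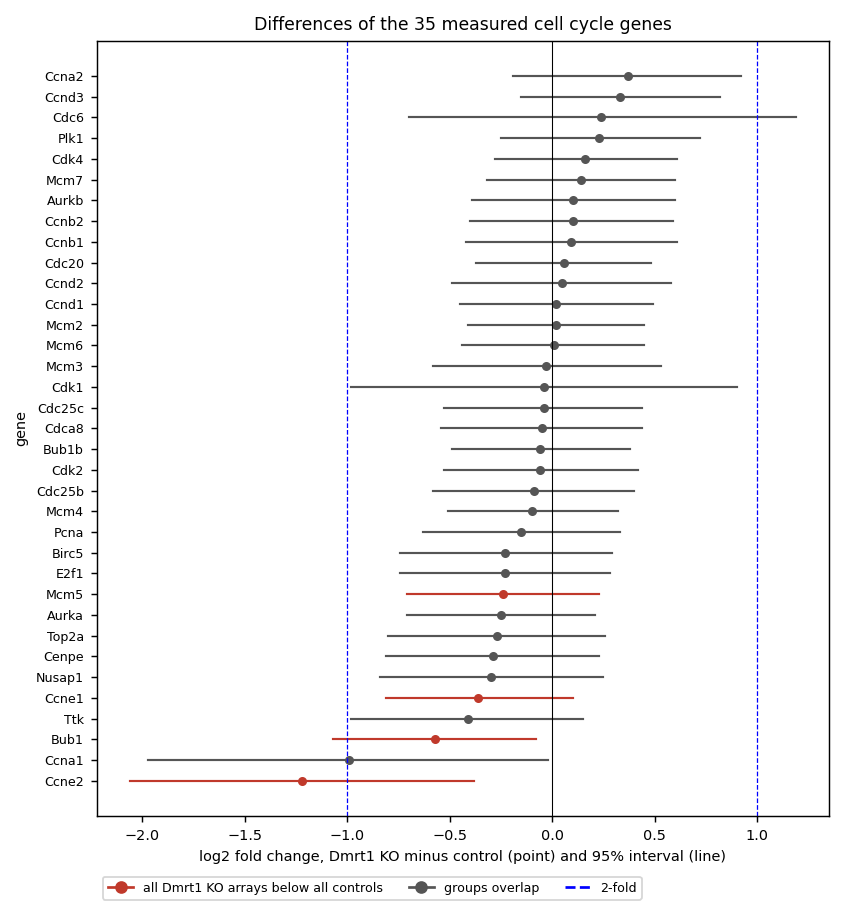
Log2 fold change (Dmrt1 KO minus control, x axis) of each of the 35 measured genes (y axis), as a point with its 95% interval from limma as a line, n = 3 arrays per group; dashed lines mark 2-fold. The intervals of Ccne2, Ccna1, Bub1 and Cdc6 cross a 2-fold line, and the other 31 lie between the dashed lines, among them Cdk1, whose row lay below the background guide in all arrays.

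The intervals reflect the scatter among these arrays, which may be technical, so they do not bound differences between animals. They are given per gene in whole testis, without adjustment for the number of genes. Without Cdk1, whose row lay below the background guide in all 6 arrays, the 95% interval of the difference lay within 2-fold in both directions in 30 of 34 members, and the exceptions were Ccne2, Ccna1, Bub1 and Cdc6, as the plot of intervals shows. The median SD within groups was 0.21 on the log2 scale for members and 0.31 for all rows. A p above the threshold does not show that levels were equal.

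In 4 members all 3 Dmrt1 KO arrays lay below all 3 controls (Ccne1, Ccne2, Bub1 and Mcm5), which is 11.4% of the 35, against 8.54% of all rows and 8.56% of named genes at 1 row each. No member had all Dmrt1 KO arrays above all controls, against 6.8% of all rows and 7.03% of named genes. Both directions together held 15.3% of all rows. The share of lower genes is near the background, and the 4 genes are described here as single measurements. Quantile normalization left 3 of them without overlap, with Mcm5 dropping out. Subtraction of array medians added Cdk4 as a gene with all Dmrt1 KO arrays above the controls.

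**Figure D2:**
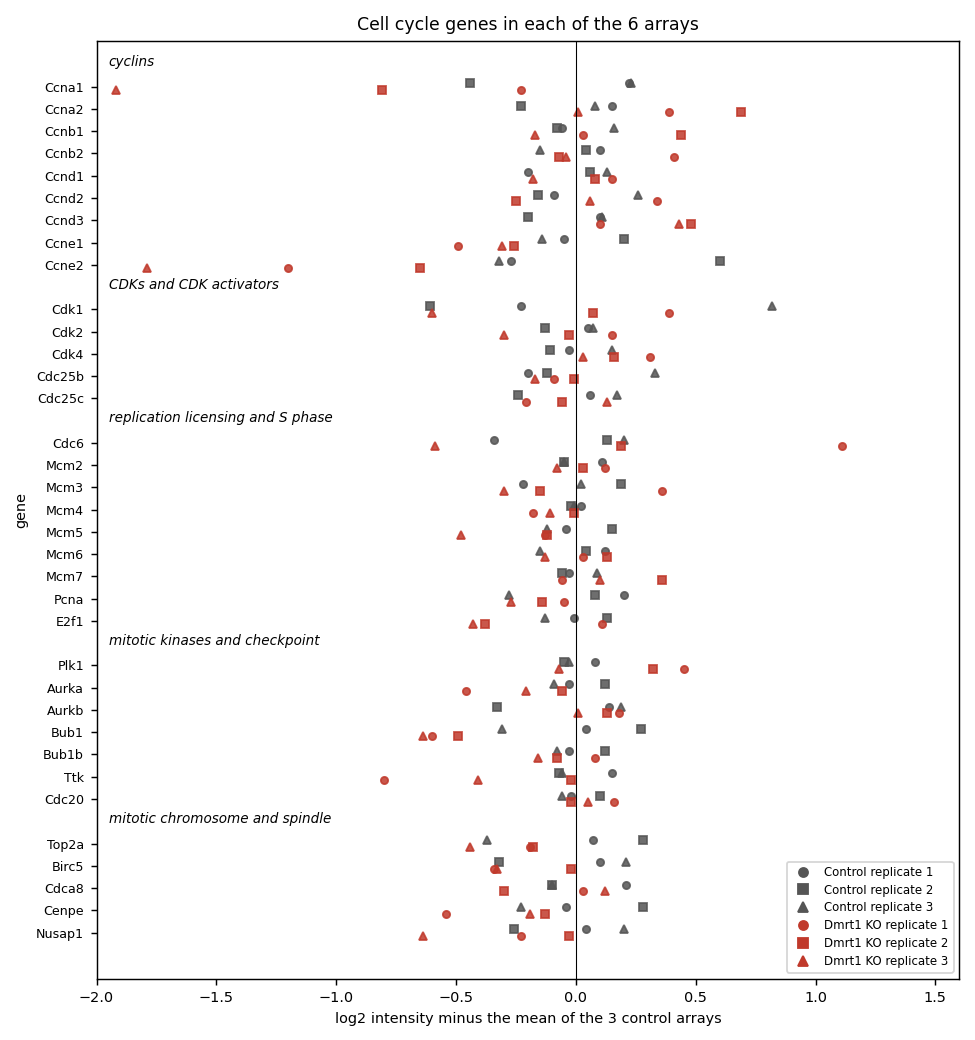
Log2 intensity of each gene (y axis, grouped by role) in each array minus the mean of the 3 control arrays (x axis); grey points are controls and red points Dmrt1 KO arrays, with the replicate given by the shape. For Ccne2 the Dmrt1 KO points spread from 0.65 to 1.80 below the control mean.

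The E-type cyclins were lower in every Dmrt1 KO array. Ccne2, which activates Cdk2 at the start of S phase, had a log2 intensity of 11.33, 12.20 and 11.28 in control replicates 1, 2 and 3 and of 10.40, 10.95 and 9.81 in Dmrt1 KO replicates 1, 2 and 3. The lowest value came from the array that stood apart, and the highest from control replicate 2. The means were 11.60 ± 0.52 and 10.38 ± 0.57 (SD, n = 3), a level 2.33-fold lower in the Dmrt1 KO group (-1.22 ± 0.36 on the log2 scale, SE; adjusted p = 0.356 in limma). Leaving out Dmrt1 KO replicate 3 gave a log2 fold change of -0.93. The leading digits of the array numbers sort the arrays into 3 groups, and in groups 1 and 2, which contain controls and Dmrt1 KO arrays, Ccne2 differed by -0.93 and -0.79.

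Ccne1, the other E-type cyclin, had log2 intensities of 12.28, 12.53 and 12.19 in the controls and of 11.84, 12.07 and 12.02 in the Dmrt1 KO arrays. The groups were separate, by a gap smaller than the spread within the controls. Ccne1 was 1.28-fold lower (-0.36 ± 0.20 on the log2 scale, SE; adjusted p = 0.625 in limma), with -0.43 and -0.29 in array number groups 1 and 2.

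The A-type cyclins lay on opposite sides of 0. Ccna1, the cyclin A of germ cells that is needed late in male meiosis, had log2 intensities of 8.17, 7.51 and 8.18 in the controls and of 7.72, 7.14 and 6.03 in the Dmrt1 KO arrays. The groups overlapped, and the mean of the Dmrt1 KO arrays (6.96) lay below the background guide. Its log2 fold change was -0.99 ± 0.42 (SE, adjusted p = 0.52), and it was -0.53 without Dmrt1 KO replicate 3 and -0.74 on the log2(value + 50) scale. Ccna2, the cyclin A of S phase and mitosis in most dividing cells, had log2 intensities of 13.26, 12.88 and 13.19 in the controls and of 13.50, 13.80 and 13.12 in the Dmrt1 KO arrays. Replicates 1 and 2 of the Dmrt1 KO group were above every control and replicate 3 was not. The log2 fold change was 0.37 ± 0.24 (SE, adjusted p = 0.688), or 0.54 with Dmrt1 KO replicate 3 left out. The difference between the A-type cyclins was not tested.

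Of the G1 cyclins, which pair with Cdk4 and Cdk6, Ccnd3 had log2 intensities of 11.53, 11.23 and 11.54 in the controls and of 11.53, 11.91 and 11.86 in the Dmrt1 KO arrays (log2 fold change 0.33 ± 0.21, SE, adjusted p = 0.672). Only replicates 2 and 3 of the Dmrt1 KO group lay above every control. Ccnd1, the main cyclin D of many dividing cells, gave 0.02 ± 0.20 and Ccnd2, known from spermatogonia and Sertoli cells, gave 0.05 ± 0.23. The mitotic cyclins Ccnb1 and Ccnb2 gave 0.09 ± 0.22 and 0.10 ± 0.21. The median log2 fold change over the 9 cyclins was 0.05.

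**Figure D3:**
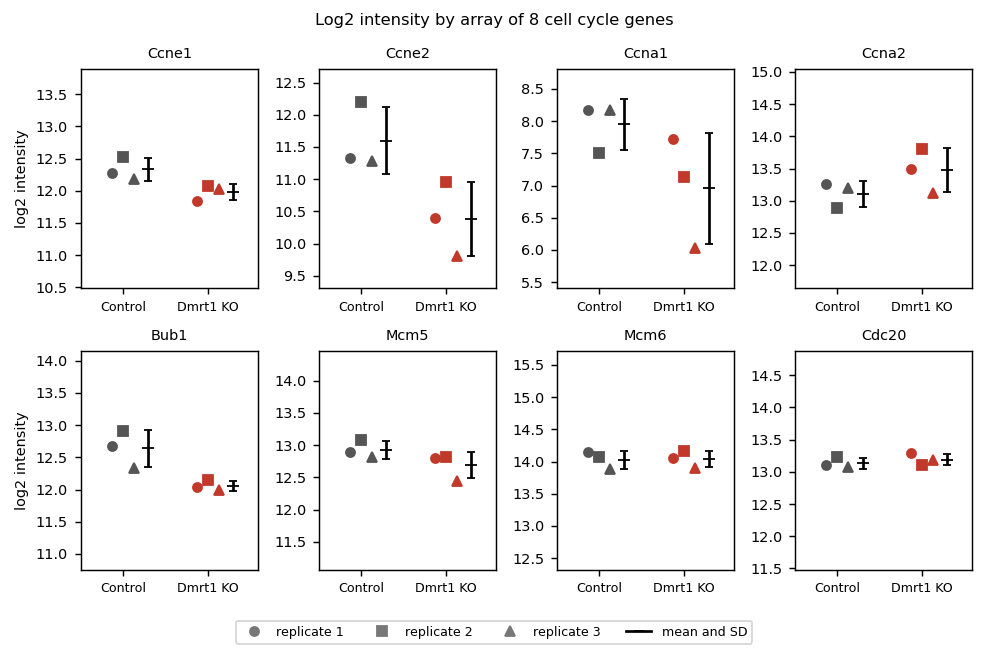
Log2 intensity (y axis) by array in the control (grey) and Dmrt1 KO (red) groups for 8 genes, with the replicate given by the point shape and the group mean ± SD beside the points (n = 3); all panels span the same range on their own origin. All Dmrt1 KO points lie below the controls for Ccne1, Ccne2, Bub1 and Mcm5, and the groups overlap for Ccna1, Ccna2, Mcm6 and Cdc20.

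The kinases and phosphatases that drive the cycle had overlapping groups. Cdk2, the S phase kinase, had log2 intensities of 14.32, 14.14 and 14.34 in the controls and of 14.42, 14.24 and 13.97 in the Dmrt1 KO arrays (log2 fold change -0.06 ± 0.20, SE). Cdk4, the G1 kinase, gave 0.16 ± 0.19. Cdc25b and Cdc25c, phosphatases that activate Cdk1, gave -0.09 ± 0.21 and -0.04 ± 0.21. The row of Cdk1, the mitotic kinase, lay between 4.60 and 6.03 on the log2 scale and so below the background guide in all 6 arrays, and its difference (-0.04 ± 0.41) is not a measure of Cdk1 transcript. It was the 1 member below the guide in every array.

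Replication licensing genes differed little. Mcm2, Mcm3, Mcm4, Mcm6 and Mcm7, subunits of the replicative helicase, had log2 fold changes of 0.02 ± 0.19, -0.03 ± 0.24, -0.10 ± 0.18, 0.01 ± 0.19 and 0.14 ± 0.20 (SE, n = 3 per group). Mcm4 stayed between 13.86 and 14.06 in all 6 arrays. Mcm5, of the same hexamer, had log2 intensities of 12.89, 13.08 and 12.81 in the controls and of 12.80, 12.81 and 12.45 in the Dmrt1 KO arrays. Its groups were separate only in the digits beyond those printed, since control replicate 3 and Dmrt1 KO replicate 2 both round to 12.81. The log2 fold change of Mcm5 was -0.24 ± 0.20 (adjusted p = 0.778), -0.12 without Dmrt1 KO replicate 3, and -0.09 and -0.14 in array number groups 1 and 2.

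Pcna, the sliding clamp of the replication fork, had log2 intensities of 15.06, 14.94 and 14.58 in the controls and of 14.81, 14.72 and 14.59 in the Dmrt1 KO arrays (log2 fold change -0.15 ± 0.21, SE). Cdc6, which loads the helicase, varied more, with 7.32, 7.79 and 7.86 in the controls and 8.77, 7.85 and 7.07 in the Dmrt1 KO arrays. Dmrt1 KO replicates 1 and 3 were the highest and the lowest of the 6 for Cdc6, and the difference was 0.24 ± 0.41. E2f1, an activator of S phase genes, gave -0.23 ± 0.22. Over these 9 genes the median log2 fold change was -0.03. The 6 genes with an E2F word in the window searched were Mcm5, Mcm6, Mcm7, Cdc6, Cdk2 and Cdk1, the last below the guide. Their log2 fold changes ran from -0.24 for Mcm5 to 0.24 for Cdc6, whose control values were near the guide.

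Among the kinases of mitosis and the checkpoint, Bub1 differed most. Bub1, a kinase at the kinetochore that recruits the spindle checkpoint and protects centromeric cohesion, had log2 intensities of 12.68, 12.91 and 12.33 in the controls and of 12.04, 12.15 and 12.00 in the Dmrt1 KO arrays. The Dmrt1 KO arrays lay close together and all below the lowest control. The level was 1.49-fold lower (log2 fold change -0.57 ± 0.22, SE, adjusted p = 0.46), and the difference was -0.64 and -0.47 in array number groups 1 and 2 and -0.54 without Dmrt1 KO replicate 3. Its partner in the checkpoint, Bub1b, gave -0.06 ± 0.19. Ttk, the kinase upstream of both, had 14.37, 14.15 and 14.16 in the controls and 13.42, 14.20 and 13.81 in the Dmrt1 KO arrays (-0.41 ± 0.24, adjusted p = 0.651). For Ttk, Dmrt1 KO replicate 2 was within the control range, and array number groups 1 and 2 gave -0.95 and 0.05.

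Plk1, a kinase of mitotic entry and spindle assembly, had log2 intensities of 13.52, 13.39 and 13.41 in the controls and of 13.89, 13.76 and 13.37 in the Dmrt1 KO arrays. As for Ccna2, replicates 1 and 2 of the Dmrt1 KO group were above all controls and replicate 3 was not, here lying below them all (0.23 ± 0.21, and 0.39 without that array). Aurka, the kinase of the spindle poles, gave -0.25 ± 0.20, and Aurkb, the kinase of the chromosomal passenger complex, 0.10 ± 0.22. Cdc20, the activator of the anaphase promoting complex, was between 13.07 and 13.29 in all 6 arrays (0.06 ± 0.18).

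Genes of mitotic chromosomes and the spindle were all slightly lower, none past the threshold. Top2a, the topoisomerase that untangles sister chromatids, gave a log2 fold change of -0.27 ± 0.23 (SE), Cenpe, a kinetochore motor, -0.29 ± 0.23, and Nusap1, a microtubule binding protein of the spindle, -0.30 ± 0.24. The passenger complex genes Birc5 and Cdca8 gave -0.23 ± 0.22 and -0.05 ± 0.21, and the further row of Birc5 gave -0.34 ± 0.21. All 5 measured genes lay below 0, with a median of -0.27, and in each of them the groups overlapped. In Dmrt1 KO replicates 1, 2 and 3 the median shift of these 5 genes from the control mean was -0.23, -0.13 and -0.33, against 0.08, -0.10 and -0.11 in the controls. The genes share the same 6 arrays, so their shifts are not independent of each other.

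The array that stood apart moved with these small shifts. Of the 35 members 14 (40%) were lowest of all arrays in Dmrt1 KO replicate 3 and 0 were highest there, against 27.3% and 21.9% of all rows. The median shift of the 35 members was 0.03, -0.03 and -0.18 in Dmrt1 KO replicates 1, 2 and 3. Within array number groups 1 and 2, which do not hold that array, the median difference was 0.00 and -0.02. Without it, the same 4 members lay below all controls (13.6% of all rows did so with 5 arrays), and Ccna2, Cdk4 and Plk1 lay above them (13.8% of all rows).

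Levels in whole testis mix several dividing cell types, and fewer cells of a type cannot be told apart from less RNA per cell. The 12 germ cell markers had a median shift of -0.05, -0.07 and -0.40 in Dmrt1 KO replicates 1, 2 and 3, with 9 of 12 below 0, and their summed intensity ran from 187669 to 210392 in the controls and from 163042 to 201254 in the Dmrt1 KO arrays. Among them Stra8, needed for entry into meiosis, was 3.10-fold lower (log2 fold change -1.63 ± 0.27, SE, adjusted p = 0.147) and Dmc1, a meiotic recombinase, 2.20-fold lower (-1.14 ± 0.37, adjusted p = 0.40). Stra8 passed the threshold with the 50% of dimmest rows left out (limma adjusted p = 0.0239) and with trend and robust settings (adjusted p = 0.0102). In the same list 3 markers were lower without overlap (25%, against 8.54% of all rows): Stra8, Dmc1 and Ddx4 (log2 fold change -0.12 ± 0.18). The 2 higher (16.7%, against 6.8%) were Zbtb16 and Uchl1, genes of undifferentiated spermatogonia (0.34 ± 0.25 and 0.26 ± 0.19). For Gfra1, another gene of undifferentiated spermatogonia, the groups overlapped (0.10 ± 0.24). Ddx4, Zbtb16, Uchl1 and Gfra1 are named here with their values known. The 9 measured Sertoli cell markers had a median log2 fold change of 0.01, with 5 above 0 and 4 below, and summed intensities of 124074 to 132984 in the controls and 111945 to 142635 in the Dmrt1 KO arrays. Single Sertoli cell markers differed in both directions. Dhh gave 0.39 ± 0.25 and Amh 0.42 ± 0.27. Cldn11 (-0.32 ± 0.21) and Sox9 (-0.24 ± 0.23), named with their values known, lay on the other side. The groups overlapped for all of these. Inha (-0.00 ± 0.21), a Sertoli cell marker, and Mael (-0.01 ± 0.20), a germ cell marker, were counted as below 0. Both were at or near 0 as printed and are named here with their values known. The part of cell composition in the differences of Ccne1, Ccne2 and Bub1 was not tested.

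Epididymis and rete markers, which could mark tissue taken along with the testis, had a higher summed level in the Dmrt1 KO arrays. Of 10 markers 8 lay above 0, and 4 of the 10 lay below the guide in all 6 arrays. Their summed intensity was 2854 to 5083 in the controls and 6010 to 12849 in the Dmrt1 KO arrays. Without overlap 2 of the 10 were higher (20%, against 6.8% of all rows) and 0 lower. None passed the threshold, though Krt18, an epithelial keratin (log2 fold change 1.79 ± 0.33, SE), and Pax8, of the rete and ducts (1.14 ± 0.23), did with the dimmest rows left out (limma adjusted p = 0.0368 and 0.0454). Both also did with trend and robust settings (limma adjusted p = 0.0193 and 0.0304). Crisp1, secreted by the epididymis, had log2 intensities of 9.70, 4.11 and 6.49 in the controls and of 9.73, 10.96 and 4.46 in the Dmrt1 KO arrays. Crisp1 was thus high in some arrays of both groups and low in others. Macrophage and leukocyte markers were all below 0 (7 of 7 measured, median log2 fold change -0.43), 2 of them lower without overlap (28.6%, against 8.54% of all rows). Only 5 of the 7 lay above the guide in both groups. The 2 without overlap were Cd163 (-1.15 ± 0.30), whose Dmrt1 KO mean of 6.39 lay below the guide, and C1qa (-0.50 ± 0.25). C1qb, named with its value known, was near 0 (-0.05 ± 0.19). The summed intensities of the 7 were 6120 to 8292 in the controls and 4848 to 6369 in the Dmrt1 KO arrays. Leydig cell markers were all above 0 (7 of 7, median 0.33), 3 of them higher without overlap (42.9%, against 6.8% of all rows), and their summed intensity ran from 75247 to 96958 in the controls and from 108200 to 123708 in the Dmrt1 KO arrays. Among them Hsd17b3 gave 0.45 ± 0.20 and Cyp17a1 0.52 ± 0.26, both without overlap. Endothelial markers were also all above 0 (5 of 5, median 0.14), 2 of them higher without overlap (40%, against 6.8% of all rows). Their sums were 11633 to 15214 in the controls and 16026 to 17499 in the Dmrt1 KO arrays. The 2 without overlap were Pecam1 (0.62 ± 0.23) and Emcn (0.28 ± 0.20). No marker of these lists passed the threshold. The part of these cells in the results was not tested.

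Beyond the members, 183 further cell cycle genes were listed and 169 had a row. Again 0 passed the threshold in limma over all rows (background 0.0312%), and the median log2 fold change was -0.12. At an unadjusted p of 0.05 limma gave 10 of the 169 lower and 4 higher, against 5.1% and 4.41% of all rows. All Dmrt1 KO arrays lay below all controls for 20 of the 169 (11.8%, against 8.54% of all rows), and above them for 9 (5.33%, against 6.8%). By list, the medians ran from -0.27 for the E2F, RB and MuvB genes to -0.03 for the remaining cyclins and kinases of cycle entry.

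**Figure D4:**
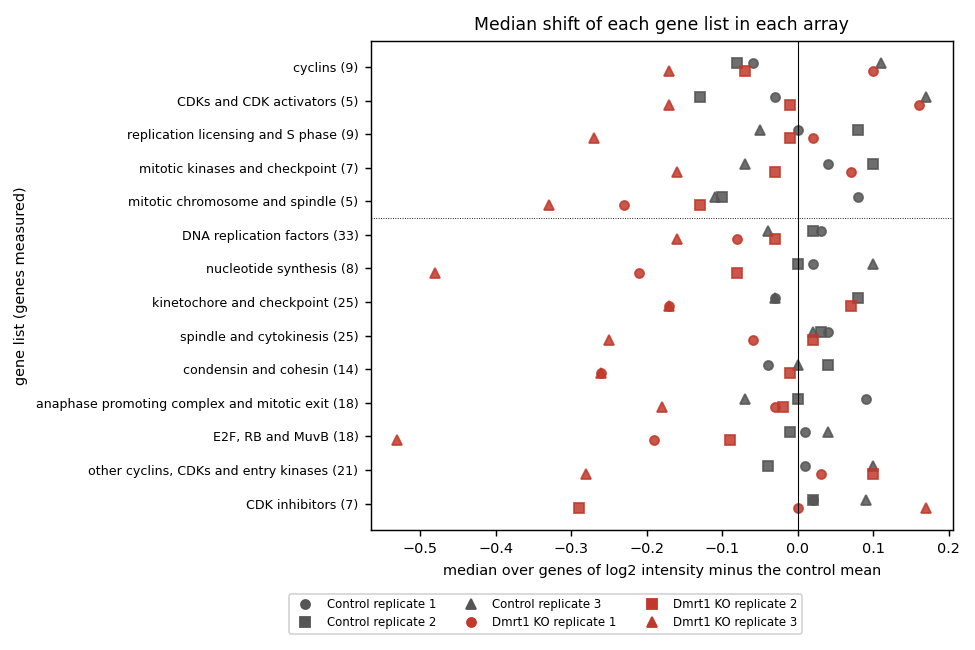
Median over the genes of each list (y axis, number of genes measured in brackets, members above the dotted line) of log2 intensity minus the control mean (x axis) in each array; grey points are controls, red points Dmrt1 KO arrays, and shapes give the replicate. In Dmrt1 KO replicate 3 the median lies lowest, or tied for lowest, in all lists except that of the CDK inhibitors, and for the E2F, RB and MuvB genes it is -0.53.

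Within the E2F, RB and MuvB list 13 of 18 genes lay below 0, and E2f2 had the smallest adjusted p among the further cell cycle genes. E2f2, an activator E2F that binds RB, had log2 intensities of 11.22, 11.67 and 11.25 in the controls and of 10.41, 10.25 and 10.22 in the Dmrt1 KO arrays. The groups were well separated, and the smallest gap between a control and a Dmrt1 KO array was 0.81. The level was 2.12-fold lower (log2 fold change -1.08 ± 0.21, SE, adjusted p = 0.19), with -0.81 and -1.21 in array number groups 1 and 2. It passed the threshold with the 50% of dimmest rows left out (adjusted p = 0.0435) and with trend and robust settings in limma's eBayes (adjusted p = 0.0364).

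E2f7, an atypical E2F that represses S phase genes, had log2 intensities of 8.70, 8.61 and 8.81 in the controls and of 7.82, 7.94 and 6.81 in the Dmrt1 KO arrays (2.27-fold lower, log2 fold change -1.18 ± 0.31, adjusted p = 0.298). The lowest value was again that of Dmrt1 KO replicate 3, below the background guide, and without that array the log2 fold change was -0.83. E2f5, a repressor E2F, gave -0.69 ± 0.27 (adjusted p = 0.479), with no overlap between groups. For E2f5, array number groups 1 and 2 gave -0.11 and -0.77, and leaving out Dmrt1 KO replicate 3 gave -0.52. The rest of the family was added after its values were seen: E2f3 gave -0.50 ± 0.28, E2f8 -0.15 ± 0.23, E2f4 0.00 ± 0.22 and E2f6 0.14 ± 0.42, and all 4 overlapped, as did E2f1. Of the 18 genes in the E2F, RB and MuvB list 4 were lower with no overlap (22.2%, against 8.54% of all rows) and 0 higher (against 6.8%), and the 4th was Foxm1, a transcription factor of mitotic genes (-0.43 ± 0.18), a gene named here with its values known. Rb1, named in the same way, gave -0.07 ± 0.23.

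**Figure D5:**
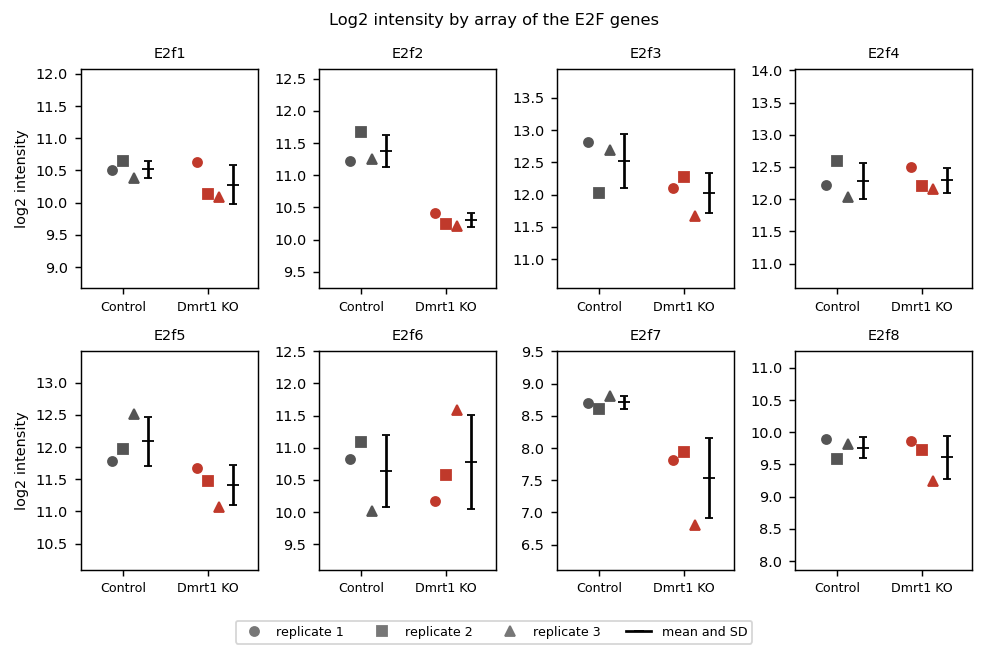
Log2 intensity (y axis) by array of the 8 E2F genes in the control (grey) and Dmrt1 KO (red) groups, with the replicate given by the point shape and the mean ± SD (n = 3) beside the points; all panels span the same range on their own origin. The groups are separate for E2f2, E2f5 and E2f7 and overlap for the other E2F genes.

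Replication factors beyond the members were mixed. Of 33 measured, 3 were lower (9.09%, against 8.54% of all rows) and 2 higher (6.06%, against 6.8%) with no overlap. Chaf1b, a subunit of the chromatin assembly factor that works behind the fork, had log2 intensities of 12.86, 12.73 and 12.97 in the controls and of 13.51, 13.81 and 13.40 in the Dmrt1 KO arrays. All Dmrt1 KO arrays were above all controls, by 1.65-fold in the means (log2 fold change 0.72 ± 0.20, SE, adjusted p = 0.328). Orc1, of the origin recognition complex, gave -0.38 ± 0.20 (adjusted p = 0.599) and Pola1, the catalytic subunit of DNA polymerase alpha, 0.47 ± 0.25 (adjusted p = 0.60). In the list of nucleotide synthesis Rrm2, the regulated subunit of ribonucleotide reductase, was 1.40-fold lower (-0.49 ± 0.19, adjusted p = 0.479), with all Dmrt1 KO arrays below the controls, while Shmt1 and Dck gave -0.30 ± 0.22 and -0.32 ± 0.24.

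Kinetochore genes also lay on both sides, with 3 of 25 lower (12%, against 8.54% of all rows) and 3 higher (12%, against 6.8%) without overlap. Hjurp, the chaperone that loads the centromeric histone, had log2 intensities of 14.16, 13.92 and 13.63 in the controls and of 13.24, 13.26 and 12.88 in the Dmrt1 KO arrays (1.71-fold lower, log2 fold change -0.78 ± 0.22, adjusted p = 0.346). Cenpi, an inner kinetochore gene, was 1.52-fold lower (adjusted p = 0.467). Bub3, which carries Bub1 and Bub1b to the kinetochore, was 1.40-fold higher (0.49 ± 0.20, adjusted p = 0.498), with 11.53, 11.72 and 11.64 in the controls and 12.06, 11.96 and 12.33 in the Dmrt1 KO arrays. Thus Bub1 and Bub3 lay on opposite sides of the controls in every Dmrt1 KO array, and neither passed the threshold.

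Of 14 condensin and cohesin genes 13 lay below 0, with 3 lower (21.4%, against 8.54% of all rows) and 0 higher (against 6.8%) without overlap. Esco2, an acetyltransferase that establishes cohesion in S phase, gave a log2 fold change of -0.54 ± 0.19 (SE, adjusted p = 0.419), Stag2, a cohesin subunit, -0.38 ± 0.19, and Wapl, the cohesin release factor, -0.28 ± 0.23. Spindle and cytokinesis genes (25 measured) had a median of -0.09, with Ect2, which starts cytokinesis, at -0.43 ± 0.25, the kinesin Kif22 at 0.38 ± 0.24 and the centrosomal kinase Nek2 at -0.47 ± 0.30. For Nek2, array number groups 1 and 2 gave -1.22 and 0.17. The anaphase promoting complex and mitotic exit list (18 measured) had a median of -0.11 and no gene without overlap. In it the inhibitor gene Fbxo5 gave -0.34 ± 0.22, the ubiquitin conjugating enzyme gene Ube2s -0.28 ± 0.21 and the subunit gene Cdc16 0.24 ± 0.22.

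Among the other cyclins and kinases of cycle entry, 4 of 21 were lower (19%, against 8.54% of all rows) and 1 higher (4.76%, against 6.8%) with no overlap. Cdc25a, the phosphatase that activates Cdk2 at the G1 to S transition, had log2 intensities of 11.27, 11.36 and 11.15 in the controls and of 10.96, 10.77 and 10.71 in the Dmrt1 KO arrays (1.36-fold lower, log2 fold change -0.45 ± 0.19, adjusted p = 0.52). Haspin, a histone kinase of mitosis, gave -0.77 ± 0.34, with its Dmrt1 KO mean below the background guide, and -0.41 without Dmrt1 KO replicate 3. Chek1, the replication checkpoint kinase, gave 0.52 ± 0.23 (adjusted p = 0.536), with all Dmrt1 KO arrays above the controls.

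The inhibitors of the cyclin-dependent kinases lay on both sides of 0, with 5 of 7 below. Cdkn1a, which binds Cdk2 complexes and Pcna and halts the cycle, had log2 intensities of 9.46, 8.85 and 9.30 in the controls and of 11.05, 11.20 and 10.05 in the Dmrt1 KO arrays (2.95-fold higher, log2 fold change 1.56 ± 0.34, SE, adjusted p = 0.218). All Dmrt1 KO arrays were above all controls, and replicate 3 was the nearest to them. Without Dmrt1 KO replicate 3 Cdkn1a passed the threshold (1.92 on the log2 scale, limma adjusted p = 0.0333), as it did with array number groups blocked (1.89, adjusted p = 0.0494) and with trend and robust settings (adjusted p = 0.0428). Cdkn1c gave 0.57 ± 0.23 and Cdkn2a -0.87 ± 0.26, both without overlap, and the other 4 of the 7 overlapped. Those 4, named with their values known, were below 0 by less than their SE. They were Cdkn1b (-0.12 ± 0.21), Cdkn2b (-0.07 ± 0.46), Cdkn2c (-0.15 ± 0.21) and Cdkn2d (-0.07 ± 0.21). Cdkn1b, between 6.49 and 6.97, lay below the background guide in all 6 arrays. Thus 2 of 7 were higher without overlap (28.6%, against 6.8% of all rows) and 1 lower (14.3%, against 8.54%).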

How the data were processed

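RNA of testes from mice 9 days after birth was labelled with Cy3 and hybridised to 1-colour NimbleGen long-oligonucleotide mouse arrays, with 1 sample per array, per the labels' protocols. The deposited values are intensity per RefSeq accession, and RMA is the tool named per the submitters' processing notes, with version and settings not given in the sources used here. They ran from 8.81 to 65190, a linear scale, so log2 was taken, with no further normalization. Accessions without version were matched to symbols of GRCm38.p6, which named 17780 of 25631 rows (69.4%). All 6 columns were used, in 3 control and 3 Dmrt1 KO arrays, with replicate numbers in order of deposition that pair no samples.

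All rows entered 1 limma fit (lmFit and eBayes, without covariate or filter; limma 3.58.1 under R 4.3.3; 4 residual and 3.96 prior degrees of freedom), with Benjamini-Hochberg adjustment over all rows and calls at 0.05. Each log2 fold change is given with its moderated standard error (SE), and intervals are 95% intervals from the same fit. Exact permutation of 3 v 3 arrays reaches no p under 0.1 and was not used. The fit was tested on simulated data. The number of arrays limits the precision.

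The genes of the set, the pathway and marker lists and the naming rule were chosen with earlier results of these data known. The rule named all members, per pathway list up to 3 genes and per marker list up to 2 genes with the smallest limma p, Dmrt1, Crisp1 and Stra8. The marker lists for peritubular myoid and smooth muscle (median log2 fold change 0.10 over 5 genes) and erythroid cells (-0.21 over 5) had 0 genes past the threshold and 0 without overlap. Alternatives were quantile normalization, array medians subtracted, the 50% of rows with the lowest mean left out, trend and robust settings, array weights, log2(value + 50), the array number group as a block, the mean of rows per gene, a threshold of 0.1 and each array left out. Figures used matplotlib version 3.10.9 in Python version 3.11.15.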

Additional observations from a re-analysis of the deposited data

How the results depend on the processing

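No paired analysis was possible because replicates were numbered by accession only, with no link between samples. The count of 0 members past the threshold was the same under all 14 settings and at a threshold of 0.1, where the smallest adjusted p of a member over the 14 settings was 0.154. Over all rows, 7 higher and 1 lower passed in the main test, against 35 and 17 after the dimmest 50% were dropped, 53 and 28 with trend and robust settings, 48 and 12 with array weights, 45 and 4 with array number groups blocked, and 26 and 8 at a threshold of 0.1. Higher rows numbered 11 with log2(value + 50), and lower rows 0 with quantile normalization. Leaving out 1 array gave 0 to 44 higher and 0 to 3 lower rows, the highest without Dmrt1 KO replicate 3. Members lower without overlap numbered 4 to 8 with 1 array left out and members higher 0 to 3, where fewer arrays make separation easier (12.5% to 15.1% of all rows lower and 10.2% to 13.8% higher), and array medians subtracted gave 1 higher (Cdk4). Ccne1, Ccne2 and Bub1 stayed separate under each of these, Mcm5 under all but quantile normalization. With 1 array left out the median of the replication licensing members ran from -0.19 to 0.07 and that of the mitotic chromosome members from -0.33 to -0.15. Of the further pathway genes, 1 passed with the lowest 50% of rows left out (E2f2), 2 with trend and robust settings (E2f2 and Cdkn1a), 1 with the block (Cdkn1a) and 0 to 1 with 1 array left out. With 1 array left out 25 to 43 of these 169 genes were lower and 9 to 22 higher without overlap. Over all rows the shares were 12.5% to 15.1% lower and 10.2% to 13.8% higher. The 43 lower genes came without Dmrt1 KO replicate 2, where 13.6% of all rows were lower. Moderation, weights and the block cannot change counts of overlap. The cause of these changes was not tested. The block gives Dmrt1 KO replicate 3 no weight, since that array is alone in its group. Of 1110 values of 80 named genes under the alternatives none changed sign where the main difference exceeded its SE, and signs of smaller differences were not read.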

Other observations

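Further cell cycle genes had groups that did not overlap but small differences, and they were chosen after their values were seen. Lower in all Dmrt1 KO arrays were Plk4, the kinase of centriole duplication (log2 fold change -0.47 ± 0.21, SE), Pole2, a subunit of DNA polymerase epsilon (-0.32 ± 0.22), Rpa1, which coats single-stranded DNA (-0.24 ± 0.19), the kinetochore gene Zw10 (-0.30 ± 0.22), Anln, an actin binding gene of cytokinesis (-0.26 ± 0.18), the cohesin subunit gene Smc3 (-0.19 ± 0.18) and Cdk5, a kinase known mainly from neurons (-0.35 ± 0.20). Without Dmrt1 KO replicate 3 the values of Pole2 and Zw10 were -0.15 and -0.12. Anln was measured at 13.52, 13.56 and 13.57 in the controls and at 13.28, 13.28 and 13.30 in the Dmrt1 KO arrays, so the groups were separate by more than the spread within either. Higher in all Dmrt1 KO arrays were Gins4, of the replicative helicase complex (0.34 ± 0.18), the kinetochore genes Cenpn (0.13 ± 0.18) and Cenpt (0.14 ± 0.18), and Ckap5, a microtubule polymerase (0.18 ± 0.19). None of these passed the threshold in limma, with adjusted p of 0.542 to 0.877.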
